A study of Mus musculus with 8 samples.

Results

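Primary cilia are built and emptied by a transport system whose parts are encoded by a well described set of genes, and 47 of them were examined here in the mouse retina. They were taken as the rows of the deposited count table, which lists 16109 genes, that carry the symbols of 7 BBSome subunits, 3 chaperonin-like BBS proteins and 3 ARF-like GTPases. The set also holds 9 IFT-B and 5 IFT-A subunits of intraflagellar transport, 5 kinesin subunits, 2 dynein-2 subunits and 13 proteins of the transition zone and basal body. All 47 were present and all passed the expression filter, with between 31 and 19602 reads per gene and library. The measurements are poly(A) RNA-seq of retinas at postnatal day 5, with 4 libraries labelled C3 KO and 4 labelled wild type (WT), from C57BL/6 mice. By its label a C3 KO animal lacks C3, the central complement protein. Hyaloid vessels were dissected away before RNA extraction. The labels describe neither the allele nor any other genetic change, and the WT libraries carry none by their labels. How many animals went into a library is not stated, so p-values measure the spread between these libraries, which may be technical.

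A cilium has no ribosomes, and its proteins travel in from the cell body. Kinesin-2 carries IFT-B trains with their cargo to the tip, dynein-2 with IFT-A carries them back, and the BBSome is the adaptor that moves membrane proteins out. The transition zone is the gate at the base. In photoreceptors it becomes the connecting cilium, through which every outer segment protein passes, and loss of many of these genes in people blinds, often together with kidney disease or extra digits.

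Library depth lay between 16503564 and 19608824 counted reads. The 47 genes took between 0.464% and 0.515% of the reads under the C3 KO label and between 0.466% and 0.506% under the WT label. C3 went against the labels: it averaged 84.5 ± 3.49 CPM (counts scaled to library size, SD, n = 4) under the C3 KO label and 2.59 ± 0.642 CPM (SD, n = 4) under the WT label. Every direction below therefore follows the labels as deposited, the C3 KO label set against the WT label. Were the labels exchanged, every "rose" and "fell" would turn round, and this was not tested. Sex-linked RNA also differed, with Xist at 1.48 to 2.65 CPM under the C3 KO label and at 2441, 2369, 295 and 2195 CPM in WT replicates 1 to 4. Y-linked Ddx3y stood at 100.4 to 118 CPM under the C3 KO label and at 0.513, 7.45, 113 and 4.41 CPM in WT replicates 1 to 4, so that Y-linked RNA was highest among the WT libraries in replicate 3 and lower, but above replicate 1, in replicates 2 and 4. The 16 measured pigment epithelium markers summed to 475 to 504 CPM under the C3 KO label, against 334 to 360.3 CPM under the WT label, and 11 were called higher. The 5 measured red blood cell genes summed to 18.1 to 23.2 CPM under the C3 KO label and to 28.5 to 51.2 CPM under the WT label, and all 5 were called lower. Photoreceptor markers, 19 measured, summed to 9839 to 11663 CPM under the C3 KO label and to 11070 to 12654 CPM under the WT label. Of these markers 4 were called lower and none higher, with 12 log2 fold changes negative and 7 positive. Of all genes tested, 8.33% were called higher and 5.98% lower. In fits that each left out 1 library, the count of called photoreceptor markers ran from 2 to 9. It was 9 without C3 KO replicate 2, and Arr3 was called higher without C3 KO replicate 3 or WT replicate 3. When Y-linked log2 CPM entered the fit, 0 were called. No marker of these lists was at 0 reads in any library. In whole retina, fewer cells of a type and less RNA per cell cannot be told apart.

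Many cilium genes are read by RFX transcription factors, which bind a palindrome called the X-box. Matches to it are shown because they are a property of these genes that their selection did not use. In the RefSeq promoters (GRCm38.p6), which run from 250 bases before the start site to 50 after it, 42 of the 47 genes had an entry. The letters GTNNCC, then any 3 bases, then GNAAC, searched on both strands, were found in 8 of these 42 genes (19.0%) and in 673 of all 27025 genes with a promoter entry (2.49%). The half-site GTTGCC, on either strand, lies inside some of the longer matches and apart from others, and was in 17 of 42 genes (40.5%) and in 14.1% of all genes. These spellings were kept after others had been tried on the same promoters, and a match is a description of letters, not of binding. The 8 longer matches follow, each as 30 bases of the gene's own strand with the motif in capitals, and they may lie on that strand or the opposite one.
Bbs1, chr19:4906605-4906634, minus strand: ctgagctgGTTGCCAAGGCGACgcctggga
Bbs4, chr9:59353464-59353493, minus strand: ctcagctgGTCGCCCGGGAAACggtcggct
Bbs7, chr3:36613489-36613518, minus strand: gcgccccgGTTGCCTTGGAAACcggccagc
Ift57, chr16:49699199-49699228, plus strand: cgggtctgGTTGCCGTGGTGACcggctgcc
Nphp4, chr4:152477903-152477932, plus strand: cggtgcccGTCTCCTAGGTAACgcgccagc
Tmem216, chr19:10555723-10555752, minus strand: tgtacgcaGTTTCCATGGGGACtgaacatg
Mks1, chr11:87853183-87853212, plus strand: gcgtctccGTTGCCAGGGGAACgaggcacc
Ahi1, chr10:20952560-20952589, plus strand: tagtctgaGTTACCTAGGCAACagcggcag
The first base of the motif lay 1 base past the start site in Bbs1, 23 in Bbs4, 19 in Tmem216 and 21 in Ahi1. It lay 24 bases before it in Mks1, 87 in Ift57, 121 in Bbs7 and 231 in Nphp4. BBSome, IFT-B and transition zone genes are all among the 8.

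Per length, a connecting cilium scaffold and a pair of ARF-like GTPases were the most abundant. Levels are given here as RPKM, the authors' values per gene length and library size, returned from their log2 scale. Rpgrip1, which anchors RPGR in the photoreceptor connecting cilium, stood highest at 165 ± 24.1 RPKM under the C3 KO label and 157.5 ± 13.7 RPKM under the WT label (SD, n = 4 each). Next came Arl3, the GTPase that releases lipid-modified cargo inside the cilium, at 120.5 ± 3.78 RPKM under the C3 KO label and 120.1 ± 6.04 RPKM under the WT label. Arl6, the GTPase that brings the BBSome to membranes, followed at 86.4 ± 2.05 RPKM under the C3 KO label and 92.1 ± 6.56 RPKM under the WT label (SD, n = 4 each). Arl13b, the ciliary membrane GTPase that activates Arl3, was far below both, at 10.1 ± 0.241 RPKM under the C3 KO label and 11.6 ± 0.694 RPKM under the WT label. In the order of means over the 8 libraries, Rpgrip1, Arl3, Arl6 and Kifap3 each stood above the next by more than the SD of either group. Exons of Rpgrip1 and Arl6 overlap those of genes on the opposite strand in the GENCODE M21 annotation. The strand setting of the counting is not given in the sources, so both levels are uncertain.

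BBSome subunits lay within a narrow band, from 19.8 RPKM for Bbs1 to 46.6 RPKM for Bbs4 over all 8 libraries, and neighbours such as Bbs1 and Bbs2 (19.98 RPKM) did not differ beyond their spread. Their chaperonin-like partners were lower, at 13.1 RPKM for Mkks, 12.8 RPKM for Bbs12 and 4.08 RPKM for Bbs10. IFT-B subunits ran from 8.33 RPKM for Ift80 to 37.4 RPKM for Ift20, a small subunit that also works at the Golgi. IFT-A subunits ran from 4.67 RPKM for Ttc21b to 11.7 RPKM for Wdr35. Of the motors, Kifap3, the subunit that links kinesin-2 to cargo, reached 73.8 RPKM, Kif3a 41.9 RPKM, Kif3c 28.0 RPKM and Kif3b 26.8 RPKM. Kif17, a motor of photoreceptor and olfactory cilia, was the lowest of all 47 at 0.615 RPKM. At the transition zone and basal body, levels ran from 3.74 RPKM for Tmem67 to 34.9 RPKM for Ahi1 below Rpgrip1.

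**Figure D1:**
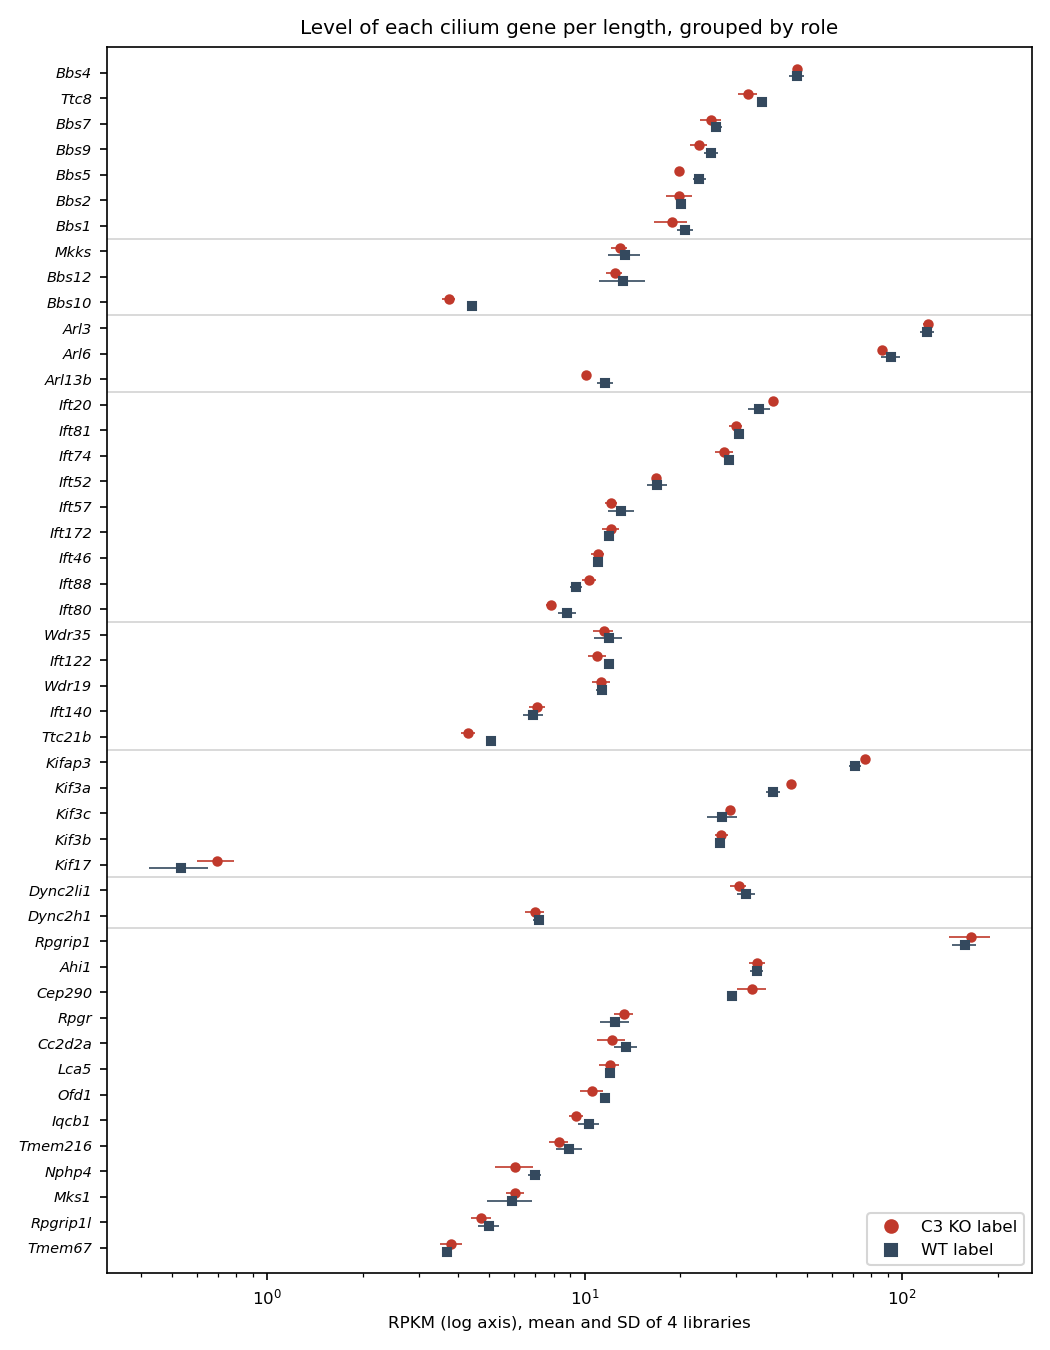
RPKM of each of the 47 genes on a log axis, grouped by role, with the mean and SD of the 4 libraries labelled C3 KO (circles) and the 4 labelled WT (squares). Levels span 0.615 RPKM for Kif17 to 161 RPKM for Rpgrip1 over all libraries. The means of the 2 labels lie close together except for Kif17, at 0.692 RPKM under the C3 KO label and 0.537 RPKM under the WT label.

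Between the labels the 47 genes differed little, and with all 8 libraries about as often as genes at large. By edgeR's quasi-likelihood test, at an adjusted p below 0.05 over all genes, 6 of the 47 (12.8%) were called, against 2269 of 15850 genes tested (14.3%). Kif3a and Cep290 rose, where 8.33% of all genes tested were called higher, and Bbs5, Arl13b, Ift80 and Ttc21b fell, where 5.98% were called lower. The share of members called was thus close to that of all genes. At an unadjusted p below 0.05 there were 13 of the 47 members, where 28.6% of all genes tested had such a p. The median log2 fold change was -0.03 over the 47 genes, with 20 positive and 27 negative, and 0.0044 over all genes tested. Leaving out 1 library gave 3 called members without C3 KO replicate 1, C3 KO replicate 3, C3 KO replicate 4 or WT replicate 2, and 11 without C3 KO replicate 2. It gave 4 without WT replicate 1 and 6 without WT replicate 4. The members' share against that of all genes in the same fit was not steady: it was 23.4% against 14.4% without C3 KO replicate 2, but 6.38% against 12% without C3 KO replicate 1 and 8.51% against 16% without WT replicate 1. It was also 6.38% without C3 KO replicate 3, C3 KO replicate 4 or WT replicate 2, where all genes gave 9.73%, 8.19% and 9.75%. Without WT replicate 3, the WT library with the most Y-linked RNA, 5 were called (10.6% of members, 10.7% of all genes), and when Y-linked log2 CPM entered the fit 0 were called (3 at an unadjusted p below 0.05), where 2.08% of all genes were.

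Changes were also small in size. For 41 of the 47 genes the 95% interval of the fold change lay within 1.25-fold in either direction, and for 46 within 1.5-fold, Kif17 being the exception. Among all genes tested, 7937 of 15850 had an interval within 1.25-fold. These counts also reflect precision, since the median SE was 0.062 over the 47 genes and 0.085 over all genes tested. The median absolute log2 fold change was 0.086 over the 47 genes and 0.122 over all genes tested. The 2 labels did not overlap for 7 of the 47 genes (14.9%), where 17.4% of all genes tested did not overlap. They were 3 higher (9.65% of all genes) and 4 lower (7.72% of all genes). The 7 were the called genes other than Ift80, with Bbs10 and Ift20.

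**Figure D2:**
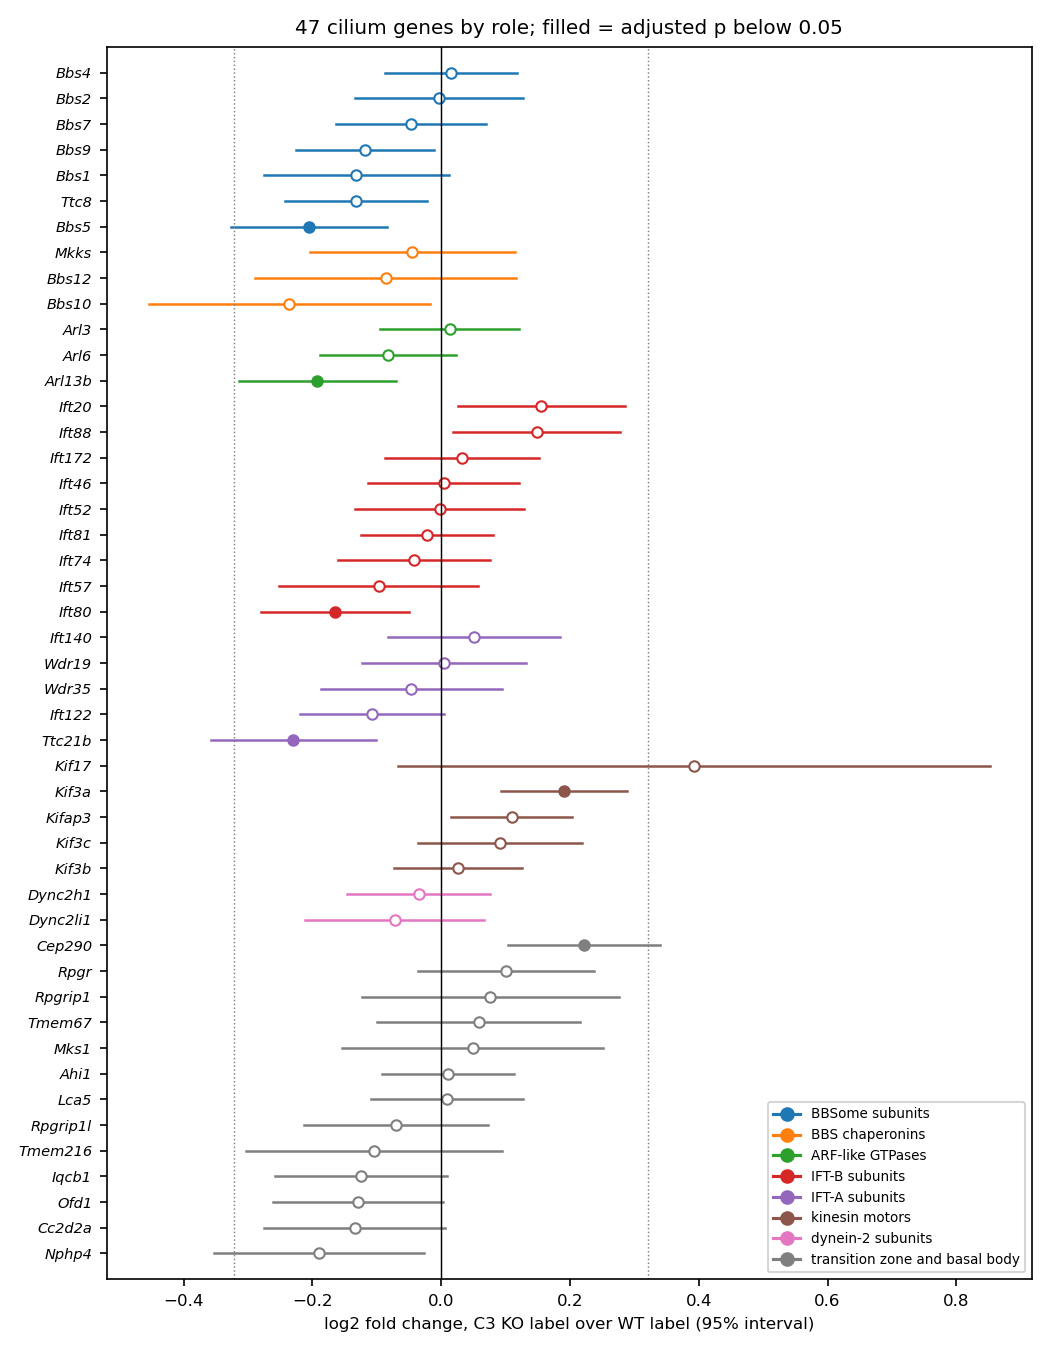
Log2 fold change of each of the 47 genes, C3 KO label over WT label, with its 95% interval, coloured by role; filled points passed an adjusted p below 0.05 and dotted lines mark a 1.25-fold change. Of 47 intervals 41 stay inside the dotted lines, and the 6 filled points lie between -0.23 and 0.22.

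In the BBSome, Bbs5 was the called subunit and fell. Bbs5, which binds membrane phosphoinositides, stood at 48.6, 49.1, 47.1 and 49.2 CPM in replicates 1 to 4 under the C3 KO label, against 56.8, 59.3, 53.3 and 54.3 CPM in replicates 1 to 4 under the WT label. All 4 libraries labelled C3 KO lay below all 4 labelled WT. The log2 fold change was -0.20 ± 0.06 (SE, 95% interval -0.33 to -0.08, edgeR adjusted p = 0.0208). The call was lost without C3 KO replicate 3 or WT replicate 2, with adjusted p-values up to 0.0614. It was also lost with Y-linked log2 CPM or a surrogate variable as a covariate. Of the 7 subunits 6 had a negative log2 fold change, with a median of -0.12, though Bbs2 lay near 0 and turned positive with upper quartile factors, and Bbs5 was the one that passed. Without C3 KO replicate 2, Bbs1 and Ttc8 passed too.

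Ttc8, the tetratricopeptide subunit BBS8, stood at 89.6, 97.7, 83.5 and 90.2 CPM under the C3 KO label and at 96.6, 99.7, 99.2 and 100.3 CPM under the WT label. C3 KO replicate 2 reached into the WT range, and the difference did not pass (log2 fold change -0.13 ± 0.05, SE, edgeR adjusted p = 0.0998). Bbs9, a scaffold subunit, stood at 149, 150.3, 133 and 141 CPM under the C3 KO label and at 153, 167, 154 and 149 CPM under the WT label. Its groups overlapped and it did not pass (-0.12 ± 0.05, SE, edgeR adjusted p = 0.131). Bbs1, whose propeller binds Arl6, was at 105.1 ± 12.2 CPM under the C3 KO label and 115 ± 7.32 CPM under the WT label (SD, n = 4 each, edgeR adjusted p = 0.215). Bbs4 differed by a log2 value of 0.02, with a 95% interval of -0.09 to 0.12, and Bbs2 by -0.0034, with an interval of -0.13 to 0.13.

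None of the 3 chaperonin-like proteins, which fold and assemble the BBSome, passed edgeR's test, DESeq2 or limma-voom, and 1 had an unadjusted p below 0.05 in edgeR. That gene, Bbs10, stood at 10.2, 9.84, 9.87 and 10.9 CPM under the C3 KO label, against 11.8, 11.99, 11.9 and 12.4 CPM under the WT label. It had 175 to 230 reads per library, and its groups did not overlap, but it did not pass (log2 fold change -0.24 ± 0.11, SE, 95% interval -0.45 to -0.02, edgeR adjusted p = 0.140). Bbs12 ranged over 27.8 to 31.8 CPM under the C3 KO label, within its range of 25.6 to 37.4 CPM under the WT label. Mkks likewise ranged over 39.0 to 43.7 CPM under the C3 KO label and over 36.1 to 47.4 CPM under the WT label.

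Of the ARF-like GTPases Arl13b fell. Arl13b stood at 53.9, 56.4, 54.6 and 56.0 CPM under the C3 KO label, against 63.8, 68.0, 62.4 and 58.3 CPM under the WT label. The groups did not overlap, although the library labelled WT replicate 4 came within a few CPM of the libraries labelled C3 KO. The log2 fold change was -0.19 ± 0.06 (SE, 95% interval -0.31 to -0.07, edgeR adjusted p = 0.0305). Of 8 fits that each left out 1 library 3 kept the call, and it was lost without C3 KO replicate 1, 3 or 4 or WT replicate 1 or 2, the highest adjusted p being 0.0938. It was also lost on log2 RPKM and with Y-linked log2 CPM or a surrogate variable as a covariate. Arl13b and Arl6 lie on chromosome 16, and Arl6 did not pass, at 182 ± 3.72 CPM under the C3 KO label and 192.5 ± 14.4 CPM under the WT label (SD, n = 4 each, edgeR adjusted p = 0.305). Arl3 differed by a log2 value of 0.01, with a 95% interval of -0.09 to 0.12.

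The 9 IFT-B subunits had a median log2 fold change of -0.0022, and Ift80 fell. Ift80, a subunit mutated in human short-rib disorders, stood at 79.4, 82.2, 80.2 and 77.0 CPM under the C3 KO label. Under the WT label it stood at 89.7, 96.7, 89.3 and 82.0 CPM. The groups overlapped slightly, C3 KO replicate 2 lying just above WT replicate 4. The log2 fold change was -0.17 ± 0.06 (SE, 95% interval -0.28 to -0.05, edgeR adjusted p = 0.0482), and of the 8 fits that each left out 1 library, those without C3 KO replicate 2 or WT replicate 4 kept the call. Without any of the other 6 libraries it was lost, with an adjusted p up to 0.139. The call was also lost with limma-voom, upper quartile factors and non-robust dispersion. So it was on log2 RPKM and with Y-linked log2 CPM or a surrogate variable as a covariate.

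Ift20 and Ift88 pointed the other way without passing. Ift20 stood at 59.5, 61.7, 58.7 and 60.1 CPM under the C3 KO label and at 55.7, 57.9, 54.3 and 47.6 CPM under the WT label. All libraries labelled C3 KO were above those labelled WT, of which replicate 4 was lowest (log2 fold change 0.16 ± 0.06, SE, edgeR adjusted p = 0.0999). Ift88, a core subunit first known from a mouse with polycystic kidneys, stood at 44.6, 49.6, 49.7 and 47.4 CPM under the C3 KO label and at 42.6, 46.0, 41.8 and 42.1 CPM under the WT label. C3 KO replicate 1 lay below WT replicate 2 (0.15 ± 0.06, SE, edgeR adjusted p = 0.117). For Ift46, Ift52, Ift81 and Ift172 the log2 fold changes lay between -0.02 and 0.03. Ift74, which binds tubulin together with Ift81, was at -0.04 and Ift57 at -0.10.

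In the IFT-A complex, which carries trains back to the cell body and admits membrane receptors, Ttc21b fell. Ttc21b, a subunit mutated in human kidney and skeletal ciliopathies, stood at 42.5, 40.1, 38.6 and 38.4 CPM under the C3 KO label, against 44.7, 47.8, 47.3 and 47.5 CPM under the WT label. The groups did not overlap. The log2 fold change was -0.23 ± 0.06 (SE, 95% interval -0.36 to -0.10, edgeR adjusted p = 0.0151), and leaving out C3 KO replicate 4 ended the call at an adjusted p of 0.0529. The call for Ttc21b was also lost on log2 RPKM and with Y-linked log2 CPM or a surrogate variable as a covariate. Its partners did not pass: Ift122 had a log2 fold change of -0.11, Wdr35 of -0.05, Wdr19 of 0.0038 and Ift140 of 0.05. The dynein-2 motor that drives these trains did not pass either, with Dync2h1, its heavy chain, at -0.03 (95% interval -0.15 to 0.08) and Dync2li1, its light intermediate chain, at -0.07 (95% interval -0.21 to 0.07). Neither was called by DESeq2 or limma-voom, and neither had an unadjusted p below 0.05.

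All 5 kinesin genes had a positive log2 fold change, in every scaling and in every fit without 1 library, with a median of 0.11. Kif3a was the one that passed, and it rose. Kif3a, the motor subunit that pairs with Kif3b or Kif3c, stood at 263, 254, 272 and 259 CPM under the C3 KO label, against 226, 247, 225 and 219 CPM under the WT label. The groups did not overlap, WT replicate 2 being the closest. The log2 fold change was 0.19 ± 0.05 (SE, 95% interval 0.09 to 0.29, edgeR adjusted p = 0.00857). All 8 fits without 1 library called Kif3a, the highest adjusted p being 0.0449. The call was lost when Y-linked log2 CPM entered the fit (adjusted p = 0.204, log2 fold change 0.20). Its 250 bases before the start site (chr11:53567119-53567368, plus strand, RefSeq on GRCm38.p6) are shown because Kif3a was called in the most fits, with an X-box half-site in capitals.
Kif3a: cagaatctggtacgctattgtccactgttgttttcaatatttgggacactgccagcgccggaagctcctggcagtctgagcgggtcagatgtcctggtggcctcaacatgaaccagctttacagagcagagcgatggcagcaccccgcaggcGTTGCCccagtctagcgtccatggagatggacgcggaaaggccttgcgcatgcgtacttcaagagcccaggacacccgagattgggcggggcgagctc
The other kinesin-2 subunits did not pass. Kifap3 stood at 299, 305, 315 and 310.2 CPM under the C3 KO label and at 300.3, 275, 289.9 and 275 CPM under the WT label, overlapping only through C3 KO replicate 1 and WT replicate 1 (0.11 ± 0.05, SE, edgeR adjusted p = 0.114). Kif3b differed by 0.03 (95% interval -0.07 to 0.13) and Kif3c, which neurons use for axonal transport, by 0.09 (95% interval -0.04 to 0.22). Kif17 had only 31 to 65 reads per library, a log2 fold change of 0.39 and a 95% interval of -0.07 to 0.85, and did not pass. Exons of Kif17 overlap those of Sh2d5 on the same strand in the GENCODE M21 annotation, and Sh2d5 was called higher (0.48, edgeR adjusted p = 0.0280).
Kinesin-2 subunits also work in axons. Of 9 ganglion cell markers 7 were called higher, where 8.33% of all genes tested were. Their summed level was 2434 to 2815 CPM under the C3 KO label and 1914 to 2531 CPM under the WT label. The count of called markers ran from 3 without C3 KO replicate 4 to 9 without WT replicate 1. It was 4 without C3 KO replicate 1, C3 KO replicate 3 or WT replicate 2, and 1 when Y-linked log2 CPM entered the fit. None of the 9 markers was at 0 reads in any library. The part of these cells in the kinesin values was not tested.

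At the transition zone and basal body Cep290 rose, the only call among 13 genes, whose median log2 fold change was 0.01. Cep290, which ties the microtubules of the gate to the membrane and is a frequent cause of Leber congenital amaurosis in people, stood at 287, 301, 249.8 and 248 CPM under the C3 KO label. Under the WT label it stood at 225, 233, 242 and 229.8 CPM. The libraries labelled C3 KO fell into a higher pair, replicates 1 and 2, and a lower pair, replicates 3 and 4, which still lay above every WT library. The log2 fold change was 0.22 ± 0.06 (SE, 95% interval 0.10 to 0.34, edgeR adjusted p = 0.0115), and leaving out C3 KO replicate 1 ended the call at an adjusted p of 0.0517. The call for Cep290 was also lost on log2 RPKM and with Y-linked log2 CPM or a surrogate variable as a covariate. An exon of 4930430F08Rik overlaps Cep290 on the opposite strand. The library kit keeps strand, per the labels, but the strand setting of the counting is not given in the sources. That gene had a log2 fold change of -0.04 (edgeR adjusted p = 0.831).

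**Figure D3:**
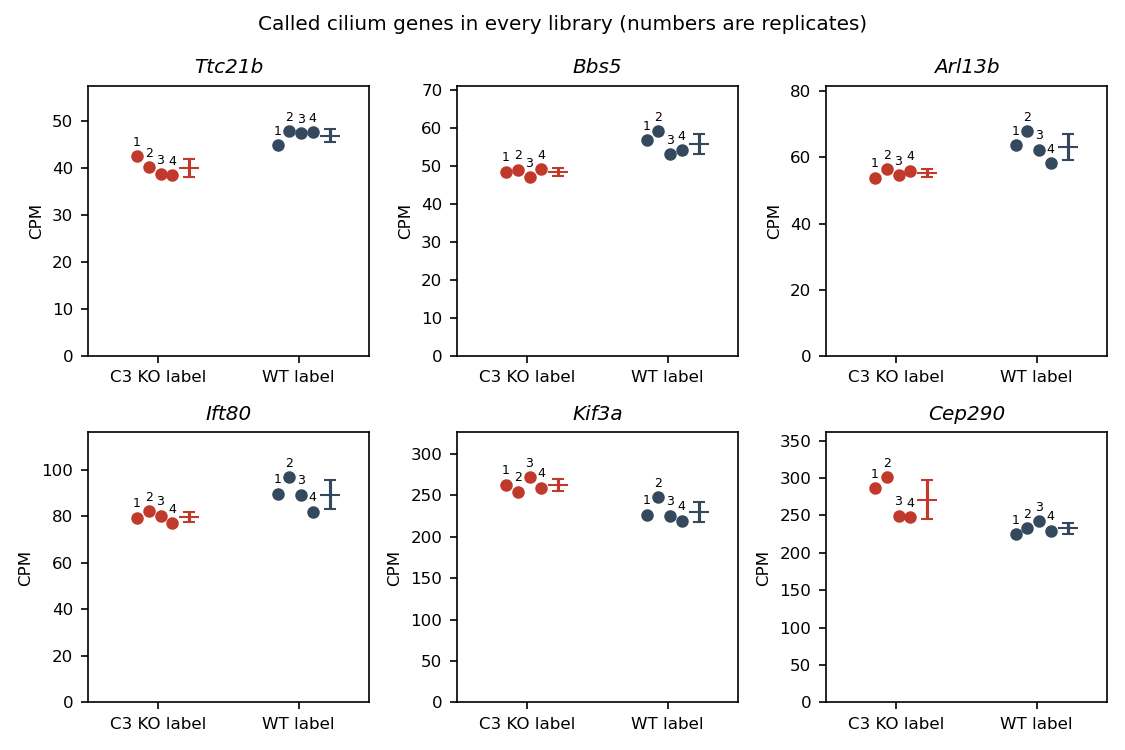
CPM of the 6 called genes in each library, C3 KO label left and WT label right, numbered by replicate, with the mean and SD of 4 libraries beside the points and axes starting at 0. Ttc21b, Bbs5 and Arl13b lie lower and Kif3a and Cep290 higher under the C3 KO label without overlap, while Ift80 meets at 82.2 and 82.0 CPM.

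Partners of Cep290 at the gate did not pass. Iqcb1, which binds Cep290, had a log2 fold change of -0.13 (95% interval -0.26 to 0.01, edgeR adjusted p = 0.204). Nphp4, a transition zone scaffold, stood at 36.0, 43.6, 33.1 and 34.0 CPM under the C3 KO label and at 41.3, 44.9, 39.9 and 41.4 CPM under the WT label. C3 KO replicate 2 alone lay within the WT range, and the difference did not pass (-0.19 ± 0.08, SE, edgeR adjusted p = 0.111), but without that library it did (adjusted p = 0.0096). The membrane-linked proteins of the MKS complex did not pass, with Cc2d2a at -0.13, Tmem216 at -0.10, Mks1 at 0.05 and Tmem67 at 0.06. Ahi1 and Lca5, both mutated in human retinal disease, were at 0.01, with 95% intervals of -0.09 to 0.11 for Ahi1 and -0.11 to 0.13 for Lca5. Rpgrip1l, the relative of Rpgrip1 found at most cilia, was at -0.07.

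Rpgr and Ofd1 are the X-linked members, and they are read beside the Xist values above. Rpgr, whose loss causes X-linked retinitis pigmentosa in people, stood at 104, 99.4, 91.4 and 91.2 CPM under the C3 KO label and at 80.9, 102, 93.0 and 84.2 CPM under the WT label. The groups overlapped (log2 fold change 0.10, 95% interval -0.04 to 0.24, edgeR adjusted p = 0.335). Ofd1, a protein of the centriole end, stood at 45.3, 52.4, 46.5 and 44.0 CPM under the C3 KO label and at 53.5, 50.5, 51.0 and 50.9 CPM under the WT label. C3 KO replicate 2 again lay within the WT range (-0.13 ± 0.06, SE, edgeR adjusted p = 0.183).

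The same library thus recurred. C3 KO replicate 2 was the highest of its group for 26 of the 47 genes (55.3%), where it was the highest for 25.3% of all genes tested. WT replicate 2 was the highest of its group for 27 of the 47 (57.4%), against 26.8% of all genes. C3 KO replicate 3 was lowest of its group for 20 members (42.6%), against 21.7% of all genes. WT replicate 4 was lowest of its group for 23 members (48.9%), against 27.3% of all genes. These counts describe the libraries and carry no test, since genes measured in 1 library are not independent. Summed photoreceptor markers were also highest in these libraries, at 11663 CPM in C3 KO replicate 2 and 12654 CPM in WT replicate 2, and lowest of their groups in C3 KO replicate 3, at 9839 CPM, and WT replicate 4, at 11070 CPM. These sums rest most on abundant markers. As the mean log2 CPM over the 19 markers, relative to the WT mean, C3 KO replicate 2 was again highest of its group (0.17), but WT replicate 2 (0.0023) lay below WT replicate 1 (0.10) and WT replicate 3 (0.08). Rpgrip1 stood at 915, 1020.3, 750.5 and 794 CPM under the C3 KO label and at 784, 935, 798 and 783 CPM under the WT label, and it too was highest in replicate 2 of each label. The part of photoreceptor content in these values was not tested. The median coefficient of variation of the members was 5.93% under the C3 KO label and 5.27% under the WT label. For all genes tested it was 7.79% under the C3 KO label and 8.05% under the WT label.

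**Figure D4:**
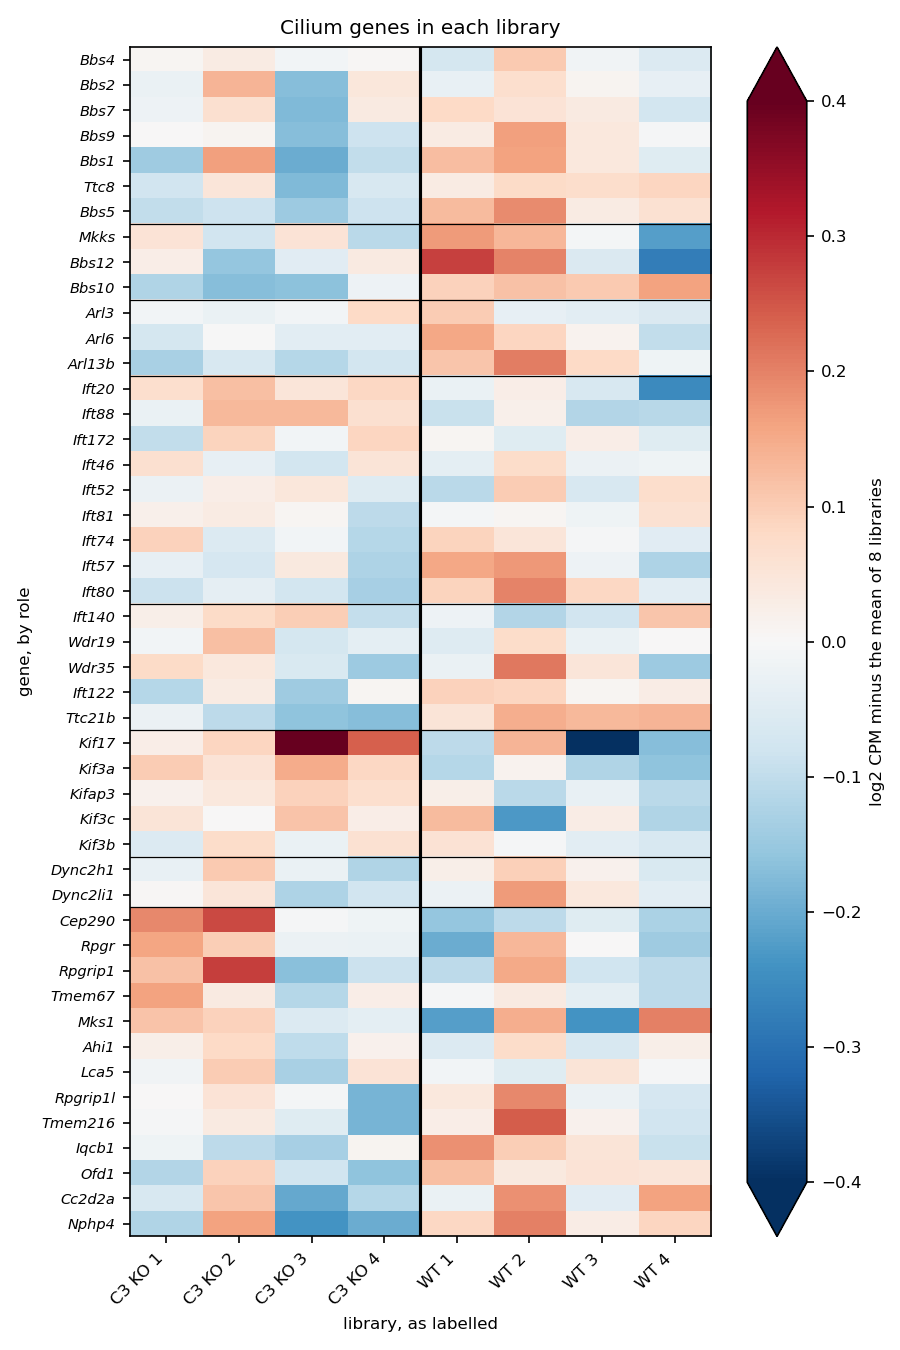
Log2 CPM of each gene minus its mean over the 8 libraries, with libraries labelled C3 KO left of the line, those labelled WT right of it and genes grouped by role. The column of replicate 2 is mostly red within each label, being the highest of its group for 26 genes under the C3 KO label and for 27 under the WT label, while Kif3a is red in every C3 KO column.

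Of the 8 genes with an X-box in their promoter, none was called, and their log2 fold changes ran from -0.19 for Nphp4 to 0.05 for Mks1 with a median of -0.07, where the 34 without the motif had a median of -0.0028. By DESeq2 and limma-voom, too, none of the 8 was called, and 1 had an unadjusted p below 0.05 in edgeR. The half-site went the other way, with a median of 0.0086 over 17 genes with it and -0.04 over those without. Of the 17, 9 log2 fold changes were positive and 8 negative. In edgeR 3 of them were called, where 14.3% of all genes tested were. Bbs5 and Arl13b fell and Kif3a rose. Of the RFX factors and other regulators of cilium genes listed, 7 were measured and 1 was called higher. That was Rfx5, better known for MHC class II genes, at 29.7 ± 1.48 CPM under the C3 KO label and 25.5 ± 1.44 CPM under the WT label (SD, n = 4 each, edgeR adjusted p = 0.0491), a call lost in each of 8 fits that left out 1 library. Rfx3, a main activator of cilium genes, was at 58.2 ± 6.00 CPM under the C3 KO label and 61.0 ± 1.995 CPM under the WT label (SD, n = 4 each, edgeR adjusted p = 0.551). Foxj1, the regulator of motile cilia, was at 7.74 ± 1.31 CPM under the C3 KO label and 9.70 ± 1.69 CPM under the WT label (adjusted p = 0.144).

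Further cilium genes were listed by function in 3 lists, and 72 of them were tested. Of these 9 (12.5%) were called, 2 higher and 7 lower, close to the 14.3% of all genes tested, with a median log2 fold change of -0.05. That count ran from 1 without C3 KO replicate 4 to 13 without C3 KO replicate 2, and was 5, 4 and 2 without C3 KO replicate 1, C3 KO replicate 3 and WT replicate 2. Without WT replicate 3, 6 were called. Among transport genes Wdr60, a dynein-2 intermediate chain, fell to 81.5 ± 7.83 CPM under the C3 KO label, against 95.01 ± 4.63 CPM under the WT label (SD, n = 4 each, edgeR adjusted p = 0.0193). That call was lost without C3 KO replicate 3, C3 KO replicate 4 or WT replicate 2. Among the basal body and gate genes Alms1, the Alström syndrome gene, fell (log2 fold change -0.24 ± 0.06, SE, edgeR adjusted p = 0.0111). The row 2700049A03Rik, a listed basal body gene, also fell (-0.21 ± 0.06, SE, edgeR adjusted p = 0.0279). Alms1 lost its call without C3 KO replicate 4 (adjusted p = 0.0538), and 2700049A03Rik lost it without C3 KO replicate 1, 3 or 4 or WT replicate 2.

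Lipid-cargo and photoreceptor cilium genes had 5 of 21 called (23.8%), beside 14.3% of all genes tested. That count was 0 without C3 KO replicate 4 or WT replicate 2, 1 without C3 KO replicate 1, C3 KO replicate 3 or WT replicate 3, 3 without WT replicate 1 and 9 without C3 KO replicate 2. Unc119, a carrier for myristoylated proteins, fell by 0.16 on the log2 scale, Tulp1, a photoreceptor trafficking protein, by 0.18, Rp1l1, an axoneme protein of photoreceptors, by 0.30, and Topors, a ligase found at the photoreceptor basal body, by 0.19 (edgeR adjusted p-values 0.0473, 0.0288, 0.0329 and 0.0432). Arl2, the relative of Arl3, rose by 0.25 (edgeR adjusted p = 0.0210). Beside them 4 of 19 photoreceptor markers were called lower, where 5.98% of all genes tested were, while 7 of the 19 had a positive log2 fold change. Their summed levels, and their counts in other fits, are given above. The mean log2 CPM of the 19, relative to the WT mean, overlapped between the labels. It was -0.08 to 0.17 under the C3 KO label and -0.19 to 0.10 under the WT label. The part of these markers in the cilium gene values was not tested. Each of the 5 cilium gene calls was lost in at least 5 of the 8 fits without 1 library, always without C3 KO replicate 4 and without WT replicate 2, the highest adjusted p being 0.147. None of 16 motile cilium genes was called by edgeR, DESeq2 or limma-voom, and 2 had an unadjusted p below 0.05.

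Hedgehog signalling depends on the cilium in vertebrates, and 4 of its 13 listed genes (30.8%) were called, 1 higher and 3 lower, with a median log2 fold change of -0.30, beside 14.3% of all genes tested. Without 1 library the count was 2 to 5, being 2 without C3 KO replicate 4, WT replicate 2 or WT replicate 4. Sufu, the inhibitor that holds GLI factors, fell to 42.3 ± 1.57 CPM under the C3 KO label, against 54.8 ± 1.89 CPM under the WT label (SD, n = 4 each, log2 fold change -0.37 ± 0.06, SE, edgeR adjusted p = 0.000201). Gas1, a co-receptor for hedgehog ligands, fell to 32.2 ± 1.69 CPM under the C3 KO label, against 49.8 ± 10.3 CPM under the WT label (-0.63 ± 0.12, SE, edgeR adjusted p = 0.00392). Both were called in all 8 fits without 1 library. When Y-linked log2 CPM entered the fit, Gas1 was called (adjusted p = 0.0373) and Sufu was not (adjusted p = 0.0873). Smo, the signal transducer that enters the cilium, fell (-0.30 ± 0.10, SE, edgeR adjusted p = 0.0449), and Gpr161, a ciliary receptor that restrains the pathway, rose (0.24 ± 0.08, SE, edgeR adjusted p = 0.0491). Smo kept its call without C3 KO replicate 3 or WT replicate 1, and Gpr161 without C3 KO replicate 2 or WT replicate 1, and the other 6 fits without 1 library lost each. Of 12 alternatives with all 8 libraries, 7 called Smo and 4 called Gpr161. Both calls were lost on log2 RPKM and with Y-linked RNA or a surrogate variable as a covariate. Smo also lost its call with the replicate block, and Gpr161 with RLE factors, limma-voom and other expression filters. The target genes Ptch1 and Gli1 did not pass, with Ptch1 at 88.1 ± 2.82 CPM under the C3 KO label and 97.7 ± 4.88 CPM under the WT label (SD, n = 4 each, edgeR adjusted p = 0.0605) and Gli1 at 2.65 ± 0.761 CPM under the C3 KO label and 3.52 ± 0.401 CPM under the WT label (edgeR adjusted p = 0.230). Hedgehog signalling acts on retinal progenitors, and of 13 progenitor and cell division markers 4 were called lower and 2 higher. Of all genes tested, 5.98% were called lower and 8.33% higher. Without 1 library the count of called progenitor markers ran from 4 to 7, with 2 lower without C3 KO replicate 4 or WT replicate 2. It was 2 when Y-linked log2 CPM or a surrogate variable entered the fit. Of the 13, 11 had a negative log2 fold change, with a median of -0.29, and their mean log2 CPM relative to the WT mean was -0.49 to -0.11 under the C3 KO label and -0.16 to 0.15 under the WT label. Their summed level, which rests most on abundant genes, was 1995 to 2362 CPM under the C3 KO label and 1966 to 2350 CPM under the WT label, no marker was at 0 reads in any library, and their part in the hedgehog values was not tested.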

How the data were processed

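Gene values come from 2 tables the authors deposited. The first holds whole-number read counts per gene, and the second RPKM values, deposited on a log2 scale. Of offsets from 0 to 3 reads, 2 reads added to each count matched the second table to the first most closely, which compresses differences of low genes there. Alignment used STAR and counting HTSeq, on mm9 (NCBIM37), per the submitters' processing notes, which give no versions. RPKM values were returned to a linear scale for levels between genes. Columns were matched to samples by their labels. Counts were tested in R 4.3.3 with edgeR 4.0.16: its expression filter kept 15850 of 16109 genes, libraries were scaled by TMM, and a robust quasi-likelihood test compared 4 libraries labelled C3 KO with 4 labelled WT without covariates, with Benjamini-Hochberg adjustment over all genes tested. Standard errors were derived from the quasi-likelihood F statistic, with t-based 95% intervals. The procedure was tested on simulated data. Alternatives were other scaling factors, filters and dispersion settings, DESeq2 1.42.0, limma 3.58.1 on counts (voom) and on log2 RPKM, a replicate block, Y-linked RNA or 1 surrogate variable (sva 3.50.0) as a covariate, and leaving out each library. The members and lists were chosen with earlier results of these data known. Values in every library are given for each called member and the 8 uncalled members with the smallest p, and for others chosen after their values were seen (Rpgrip1 and Rpgr). Called genes of the further lists are named, except 1 result that is not reported here. Ptch1, Gli1, Rfx3, Foxj1 and Sh2d5 were also named after their values were seen. Exon overlaps come from GENCODE M21 on GRCm38, used for names only, and 8 of the 47 genes (Bbs4, Bbs12, Kif3c, Kif17, Cep290, Rpgr, Tmem216 and Ofd1) overlap a gene of the count table there, so their values are uncertain, since no source used here states the strand setting of the counting. Rpgrip1, Arl6, Mkks, Ift57, Ift88 and Tmem67 overlap annotated genes that have no row of that name in the count table. Their values are uncertain too, since reads of such a gene could be counted to them. No pair of libraries of a group agreed within sampling noise (chi-square per degree of freedom at least 3.70).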

Additional observations from a re-analysis of the deposited data

Results flagged for a closer look

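Among 94 groups of 4 libraries, 1 per gene and label, 3 held a library far from the rest by Dixon's test at the 95% level, where chance flags about 1 in 20. Arl3 stood at 104 CPM in C3 KO replicate 4, above 98.0 CPM in the next, and at 106 CPM in WT replicate 1, above 96.6 CPM in the next. Rpgrip1 stood at 935 CPM in WT replicate 2, above 798 CPM in the next.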

How the results depend on the processing

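The count of all called genes (2269), of called members (6) and of called genes in the 3 further cilium lists (9) stayed within 1.5 times under RLE or upper quartile factors, other expression filters, non-robust dispersion, DESeq2, limma-voom and the replicate block. On log2(RPKM + 1) these counts were 1490, 2 and 1, and on log2(RPKM + 0.1) they were 1479, 2 and 0 (19 of the further genes at an unadjusted p below 0.05). When Y-linked log2 CPM entered the fit they were 330, 0 and 0 (3 members and 5 further genes at an unadjusted p below 0.05), and with 1 surrogate variable 1223, 1 and 3. Y-linked log2 CPM correlated with the labels at 0.755, and the cause of these lower counts was not tested. When 1 library was left out, all called genes ran from 1305 (without C3 KO replicate 4) to 2543, called members from 3 to 11 and the further genes from 1 to 13. The members' median log2 fold change ran from -0.07 to -0.02 there, and no called gene named here changed sign. With the replicate block 2400 genes and the same number of members, 6, were called. Deviations of libraries with the same replicate number correlated at -0.06 to 0.09, so the numbers were not taken as pairs. Over the 62 genes followed singly, 1085 single-gene results stayed on their side of the threshold, 150 calls were lost and 5 gained. Counts were lowest for Kif17, at 31 to 65 reads per library, and Bbs10, at 175 to 230.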
